A study of Mus musculus with 6 samples.

Results

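The STAT and IRF transcription factors carry cytokine and interferon signals to the genome, and 8 of them were followed here in the hippocampus of mice that lack IκBα in the brain. The 8 genes are Stat2, Stat3, Irf1, Irf2, Irf3, Irf7, Irf8 and Irf9, and they were read by 16 of the 45101 probe sets on the array, namely every probe set whose only gene symbol is 1 of these. They are 8 of 18193 genes that have such probe sets. The 3 IκBα-deficient mice were IκBαfl/-;Nestin-Cre and the 3 littermate controls were IκBαfl/-. All 6 animals were 2 to 3 months old, and all carried 1 floxed and 1 null allele, so the controls are not wild type. Nestin-Cre deletes the floxed allele in neural precursors and thus in most neurons, astrocytes and oligodendrocytes, whereas microglia and blood vessels arise from other precursors. Total RNA of dissected hippocampi was hybridised to Affymetrix mouse arrays, with 1 array per labelled biological repeat. The comparison asks whether transcripts of the STAT and IRF factors differ between hippocampi with and without brain IκBα.

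IκBα, encoded by Nfkbia, holds NF-κB in the cytoplasm. STAT proteins wait in the cytoplasm until Janus kinases at cytokine receptors phosphorylate them, and then enter the nucleus. IRF proteins share a DNA-binding domain and recognise interferon-response elements, and some of them are induced by interferons while others are present beforehand and are activated by phosphorylation. In brain, Stat3 is known for its part in reactive astrocytes and Irf8 for its part in microglia.

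The promoter windows of 2 members hold the κB consensus, the element to which NF-κB binds, and these windows are shown because the mice lack an NF-κB inhibitor. The sequences are from RefSeq (GRCm38.p6) and run 5′ to 3′ on the plus strand, from 250 bases before the gene start to 50 after it. RefSeq windows were found for 8 of the 8 members, 11 windows in all. Capitals mark the κB consensus, the GAS element (TTCNNNGAA, a site for STAT dimers) and the interferon-stimulated response element or ISRE (GAAANNGAAA, a site for IRF proteins), searched on both strands. In Irf1 (chr11:53769764-53770063) the capitals are a GAS match at bases -90 to -82 from the start, followed by a κB match at -13 to -4. In Irf2 (chr8:46739495-46739794) they are an ISRE match at -241 to -232, a GAS match at -224 to -216 and a κB match at -17 to -8. None of these matches overlaps another.
Irf1: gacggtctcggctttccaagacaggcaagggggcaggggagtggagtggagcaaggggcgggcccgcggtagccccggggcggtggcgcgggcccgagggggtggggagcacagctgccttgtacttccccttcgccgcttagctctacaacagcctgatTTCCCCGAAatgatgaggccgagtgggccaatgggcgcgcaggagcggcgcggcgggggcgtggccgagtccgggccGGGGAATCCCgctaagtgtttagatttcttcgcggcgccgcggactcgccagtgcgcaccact
Irf2: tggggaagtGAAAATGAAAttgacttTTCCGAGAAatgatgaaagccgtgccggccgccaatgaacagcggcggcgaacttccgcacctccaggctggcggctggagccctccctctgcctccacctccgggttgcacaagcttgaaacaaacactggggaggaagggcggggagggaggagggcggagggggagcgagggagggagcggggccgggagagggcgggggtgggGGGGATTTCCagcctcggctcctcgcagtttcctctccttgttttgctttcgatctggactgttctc

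Over all 32851 windows of this length, 4.51% held the κB consensus, 8.3% the GAS element and 3.44% the ISRE. Of the other members, Irf8 had 2 GAS matches in 1 of its 2 windows, TTCTCGGAA and TTCAGAGAA, at -171 to -163 and -153 to -145. Stat2 had an ISRE match on the minus strand at -222 to -213, which reads TTTCAGTTTC on the plus strand. None of the 3 motifs was found in the windows of Stat3, Irf3, Irf7 or Irf9. A match describes the letters of the window, and binding was not measured.

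Nfkbia itself was lower in the deficient hippocampus. Of its 5 probe sets, 1438157_s_at had values of 7.04, 7.07 and 6.86 on the deficient arrays against 8.81, 8.71 and 8.78 on the control arrays, a 3.42-fold difference (limma, adjusted p = 0.00183). These were RMA values on the log2 scale, which are relative levels. The probe sets with an adjusted p under 0.05 among the 45037 tested were 3, all of Nfkbia and all lower, which is 0.00666% of them, and 0 were higher. Whether the Nfkbia probes lie in the deleted part is not known from the labels. Markers of hippocampal neurons were present, with all 12 measured and array means between 10.55 and 10.75. Of these neuron markers, 2 had positive and 10 negative differences, and 0 passed the threshold. The mean of 10 choroid plexus markers was 8.85, 8.20 and 7.88 on deficient arrays and 7.97, 5.82 and 5.78 on control arrays. Control array 1 thus lay within the range of the deficient arrays, apart from the other controls. The mean of 12 meninges markers lay between 8.36 and 9.24 on deficient arrays and between 7.79 and 8.35 on control arrays. The mean of 6 pericyte markers was 9.20, 9.60 and 9.18 on deficient arrays and 9.14, 9.19 and 9.02 on control arrays, highest on deficient array 2. All choroid plexus, meninges and pericyte markers measured had positive differences, and 0 passed the threshold. The mean of 10 leukocyte markers lay between 5.31 and 5.50 on deficient arrays and between 5.34 and 5.37 on control arrays. IκBα-deficient array 2 had the highest meninges mean (9.24) and a gap of 2.02 between 3′ and 5′ control probe sets, against 0.56 to 0.73 on the other arrays. A wide gap is a known sign of less complete RNA. Where a difference of a STAT or IRF probe set turned in sign or moved by over 1.5 times without this array, both values are given. The same holds for the 3 genes with the smallest unadjusted p in each pathway list. For the negative list genes named beside them, differences without this array are not given.

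No STAT or IRF gene passed the test between genotypes. Of the 16 member probe sets, 0 were called higher and 0 lower (limma, Benjamini-Hochberg adjusted p = 0.9999 for each), where 0.00666% of all probe sets were called. At an unadjusted p under 0.05 stood 1 member probe set with a positive difference, for Irf1, and 1 with a negative difference, for Irf3. Over all probe sets, 2.15% had such a p with a positive and 1.19% with a negative difference. The groups did not overlap for 3 of the 16, above the controls for Irf1 and 1 of 2 Irf8 probe sets and below them for 1 of 4 Irf3 probe sets. Over all probe sets this held for 8.45%, of which 4.76% lay above and 3.68% below. Probe sets of 1 gene share their transcript and are not independent. The differences, deficient minus control on the log2 scale, lay between -0.30 and 0.20, with a median of 0.05 beside -0.001 over all probe sets, and 10 of 16 were positive. No 95% interval of a member reached beyond -0.54 or 0.39 on this scale, while a difference of 1 means a doubling.

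**Figure D1:**
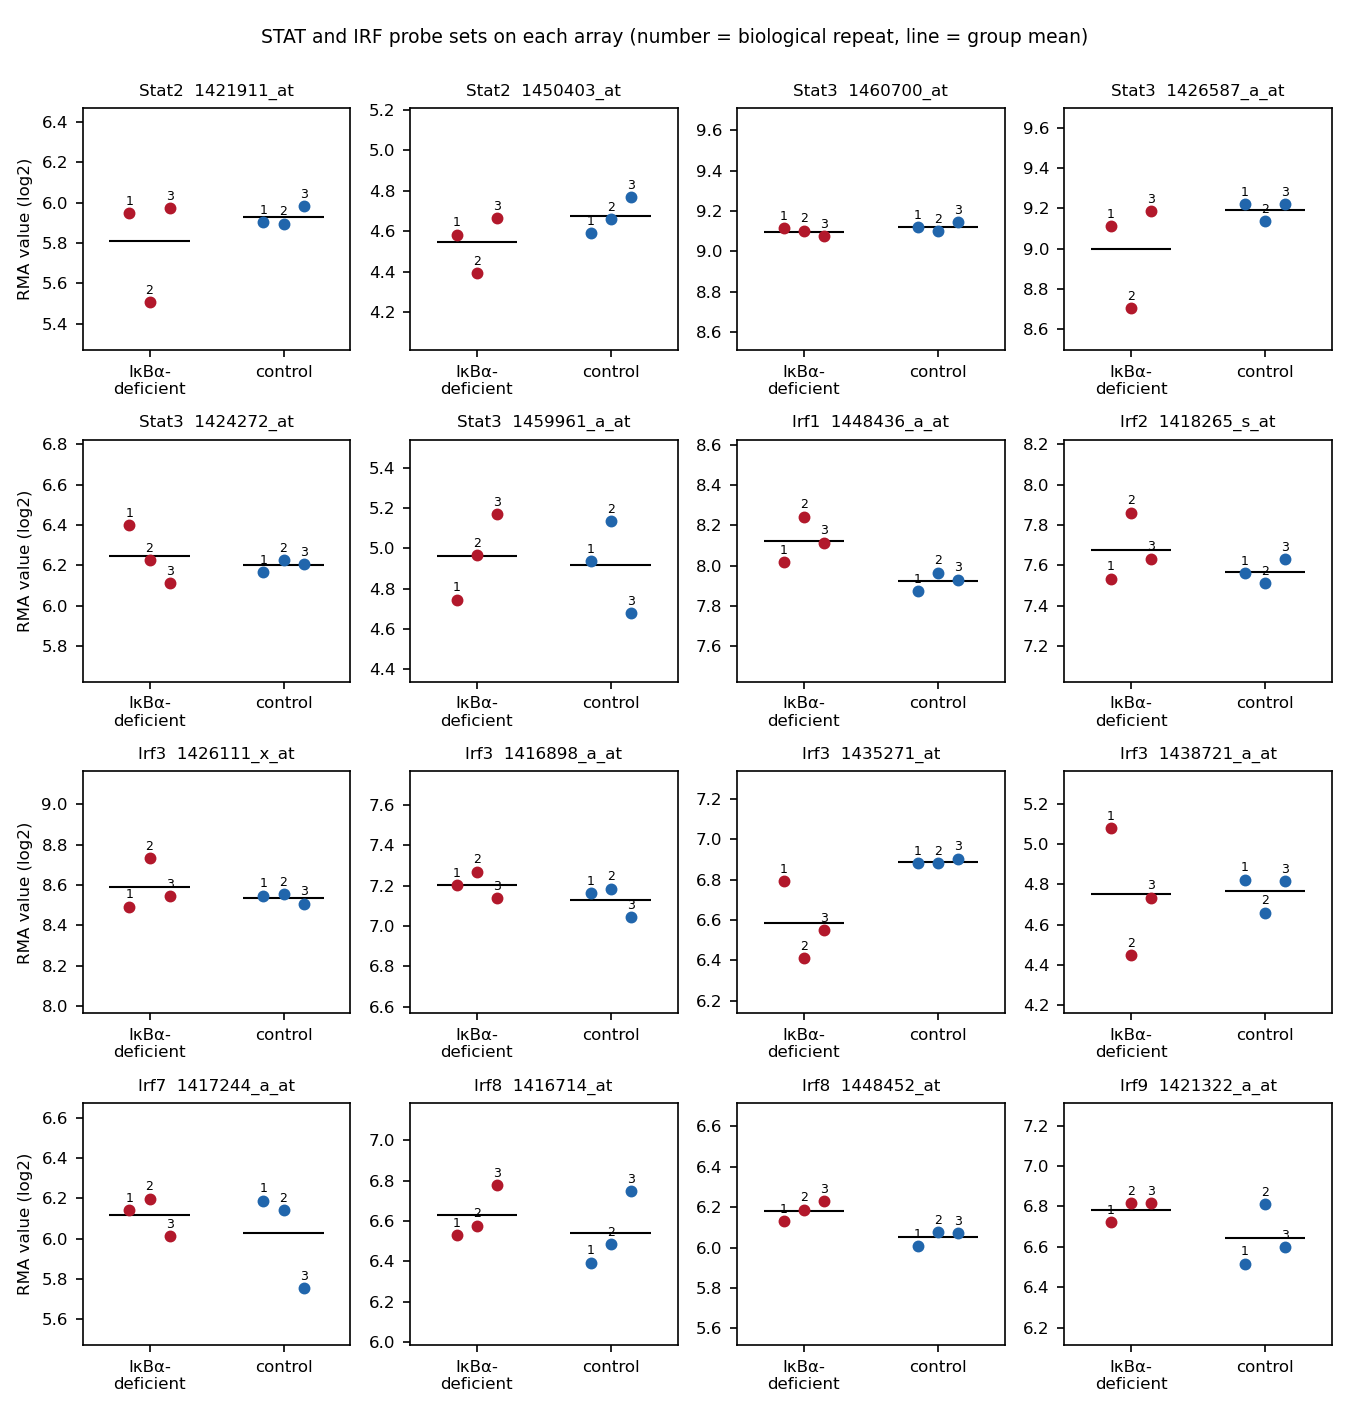
RMA values (log2, vertical axis) of the 16 STAT and IRF probe sets on each array, with the IκBα-deficient group on the left and the control group on the right of each panel. Points are arrays numbered by biological repeat, black lines are group means, and every vertical axis spans the same width. IκBα-deficient array 2 lies apart from the other arrays for Stat2 1421911_at (5.51) and Stat3 1426587_a_at (8.71), and Irf1 lies between 8.02 and 8.24 on all 3 deficient arrays, above the controls.

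**Figure D2:**
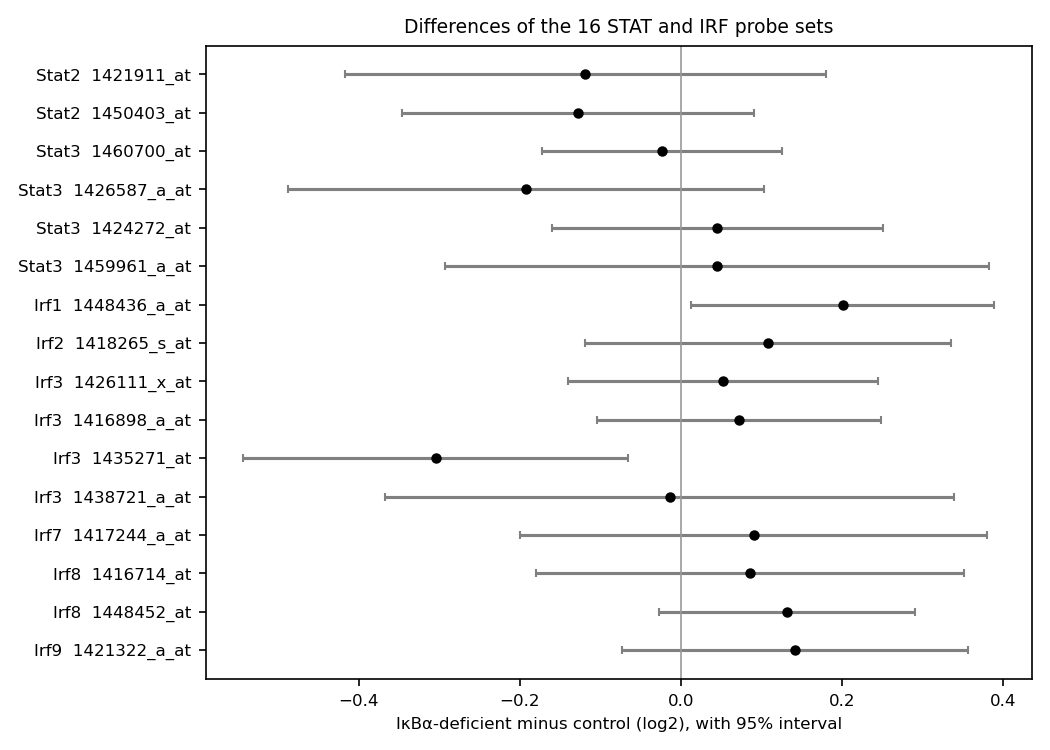
Differences between IκBα-deficient and control arrays (horizontal axis, log2) for each STAT and IRF probe set. Points are the fitted differences and bars their 95% intervals, which include 0 for 14 of the 16 probe sets and leave it out for Irf1 1448436_a_at (0.01 to 0.39) and Irf3 1435271_at (-0.54 to -0.07).

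Irf1 activates genes of antigen presentation and interferon defence, and it is itself known to be induced by interferon-γ and by NF-κB. Its only probe set (1448436_a_at) gave 8.02, 8.24 and 8.11 on the deficient arrays against 7.87, 7.96 and 7.93 on the control arrays. All deficient values lay above all control values, with the widest distance on deficient array 2. The difference was 0.20 ± 0.08 (SE), 1.15-fold with a 95% interval of 1.01- to 1.31-fold, and it did not pass the threshold (unadjusted p = 0.0395, adjusted p = 0.9999, limma). It was 0.14 without deficient array 2, 0.12 with the meninges marker mean as a covariate (unadjusted p = 0.243) and 0.28 with the choroid plexus marker mean as a covariate. Both marker means were themselves higher in the deficient group, so with 6 arrays these fits cannot tell genotype and neighbouring tissue apart. The part of neighbouring tissue in this difference was not tested.

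Irf2 binds the same elements as Irf1 and is known as its antagonist. Its probe set (1418265_s_at, a type that may also read other transcripts) gave 7.54, 7.86 and 7.63 in deficient animals against 7.56, 7.51 and 7.63 in controls. The groups overlapped, and only deficient array 2 stood clear of the controls. The difference of 0.11 ± 0.10 (SE) came to 0.02 without that array.

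Irf3 is present in resting cells and is activated by phosphorylation when nucleic acids of viruses are sensed, so its transcript need not move with its activity. Its 4 probe sets disagreed. The brightest, 1426111_x_at, of a type that can cross-hybridise, gave 8.49, 8.73 and 8.54 in deficient animals against 8.55, 8.56 and 8.51 in controls. Probe set 1416898_a_at gave 7.20, 7.27 and 7.14 in deficient animals against 7.16, 7.19 and 7.04 in controls. For these probe sets the groups overlapped and the differences were 0.05 ± 0.08 and 0.07 ± 0.08 (SE). Without deficient array 2, that of 1426111_x_at turned to -0.02 and that of 1416898_a_at was 0.04.

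Another Irf3 probe set, 1435271_at, gave 6.79, 6.41 and 6.55 in deficient animals against 6.88, 6.88 and 6.90 in controls. All deficient values lay below the narrow range of the controls. Its difference was -0.30 ± 0.10 (SE), the widest of any member probe set, with an unadjusted p of 0.0191 and an adjusted p of 0.9999 (limma). It was -0.22 without deficient array 2 and -0.41 without deficient array 1. The dim probe set 1438721_a_at gave 5.08, 4.45 and 4.73 in deficient animals against 4.82, 4.66 and 4.82 in controls, below the array medians of 6.08 to 6.13, where RMA compresses differences. Its difference was -0.01, and 0.14 without deficient array 2. The mean over the 4 probe sets differed by -0.05. Which part of the transcript each probe set reads is not given in the sources used here.

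Irf7 is the interferon-induced amplifier of type I interferon production. Its probe set (1417244_a_at) gave 6.14, 6.20 and 6.01 in deficient animals against 6.19, 6.14 and 5.75 in controls. The groups overlapped, and control array 3 stood below the other arrays. The difference of 0.09 ± 0.12 (SE) was 0.05 without deficient array 2 and turned to -0.05 without control array 3. It was also negative with the choroid plexus (-0.11) or the meninges marker mean (-0.09) as a covariate.

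Irf8 is a factor of the myeloid lineage, which in brain tissue is mainly microglia. Probe set 1416714_at gave 6.53, 6.58 and 6.78 in deficient animals against 6.39, 6.48 and 6.75 in controls, and the groups overlapped. Probe set 1448452_at gave 6.13, 6.19 and 6.23 in deficient animals against 6.01, 6.07 and 6.07 in controls. Here the groups did not overlap, although the gap between them was narrow. The differences were 0.09 ± 0.11 and 0.13 ± 0.07 (SE), with unadjusted p of 0.472 and 0.0912 (limma). That of 1416714_at depended on single arrays and on the covariates, at 0.01 without deficient array 3, 0.01 without control array 1, 0.19 without control array 3, and 0.30 with the choroid plexus or 0.22 with the meninges marker mean as a covariate. The mean of 9 measured microglia markers was 9.18, 8.84 and 9.27 in deficient animals and 9.05, 9.09 and 9.16 in controls, with 5 genes positive and 4 negative. In tissue RNA, more cells of a type and more RNA per cell cannot be told apart.

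Stat2 and Irf9 are subunits of ISGF3, the complex that turns on the antiviral genes of type I interferon, in which Irf9 makes the contact with the ISRE. Stat2 probe set 1421911_at gave 5.95, 5.51 and 5.97 in deficient animals against 5.90, 5.90 and 5.98 in controls. Deficient array 2 alone was low, and without it the difference of -0.12 ± 0.13 (SE) turned to 0.03. The dimmer Stat2 probe set 1450403_at gave 4.58, 4.39 and 4.67 in deficient animals against 4.59, 4.66 and 4.77 in controls, a difference of -0.13 ± 0.09 (SE) that was -0.05 without deficient array 2. Irf9 (1421322_a_at) gave 6.72, 6.81 and 6.82 in deficient animals against 6.52, 6.81 and 6.60 in controls. Its groups overlapped through control array 2. The difference was 0.14 ± 0.09 (SE) with an unadjusted p of 0.165 (limma), and it was 0.23 without control array 2 and 0.08 without control array 1. The subunits of ISGF3 thus had differences of opposite sign, and neither passed.

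Stat3 transmits signals of the interleukin-6 family through the receptor subunit gp130. Its brightest probe set (1460700_at) gave 9.12, 9.10 and 9.08 in deficient animals against 9.12, 9.10 and 9.14 in controls. The groups overlapped with an SD of 0.02 in each, and the 95% interval of its difference ran from 0.89- to 1.09-fold. Probe set 1426587_a_at gave 9.11, 8.71 and 9.19 in deficient animals against 9.22, 9.14 and 9.22 in controls. Deficient array 2 was again apart, and the difference of -0.19 ± 0.13 (SE) was -0.04 without it. The dimmer probe sets 1424272_at and 1459961_a_at had overlapping groups and a difference of 0.05 each.

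The values of Stat2 1421911_at and Stat3 1426587_a_at ran together over the 6 arrays (Pearson r = 0.966), and Stat2 1421911_at ran against Irf3 1426111_x_at (r = -0.973). All of these had deficient array 2 at the end of their range. Irf1 ran against Irf3 1435271_at (r = -0.965), and deficient array 2 was at the end of their range as well. Among the 28 pairs of members, on their brightest probe sets, 15 correlations were positive and the median was 0.11, with a range of -0.97 to 0.87. With 6 arrays that share their genotype and tissue differences, these correlations are descriptions. Among 19939 bright probe sets with 1 symbol, the patterns most like that of Irf1 were Itga6, a laminin receptor subunit (r = 0.990 over 6 arrays, 0.978 over the 4 arrays left without the 2 farthest from the median), and Tal1, a transcription factor of blood and endothelium (r = 0.988 and 0.981). For Irf9 they were Kctd14 (r = 0.994 and 0.936) and the tubulin Tubb5 (r = 0.988 and 0.988). For Irf8 they were Brd1 (r = 0.991 and 0.947) and Lamb1, a laminin chain (r = 0.986 and 0.978). Candidates had means above the median of all probe sets, which left out Stat2 and Irf7. None of the remaining members was among the closest genes of another member. For Irf2 they were Smarcb1 (r = 0.997 and 1.000) and Sec61a1 (r = 0.996 and 0.994). The closest to Irf3 were Tmtc1 (r = 0.999 and 0.996) and Tgm2 (r = 0.997 and 0.928), and the closest to Irf7 were 1700052K11Rik (r = 0.998 and 0.937) and Marchf5 (r = 0.986 and 0.716). Stat2 was most like Sh3bp5 (r = 0.999 and 0.998) and Polr2e (r = 0.999 and 0.991), and Stat3 most like Shroom2 (r = 0.993 and 0.993) and Tmx2 (r = 0.982 and 0.977). With so many candidates and 6 arrays, values of this size are found for every member.

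**Figure D3:**
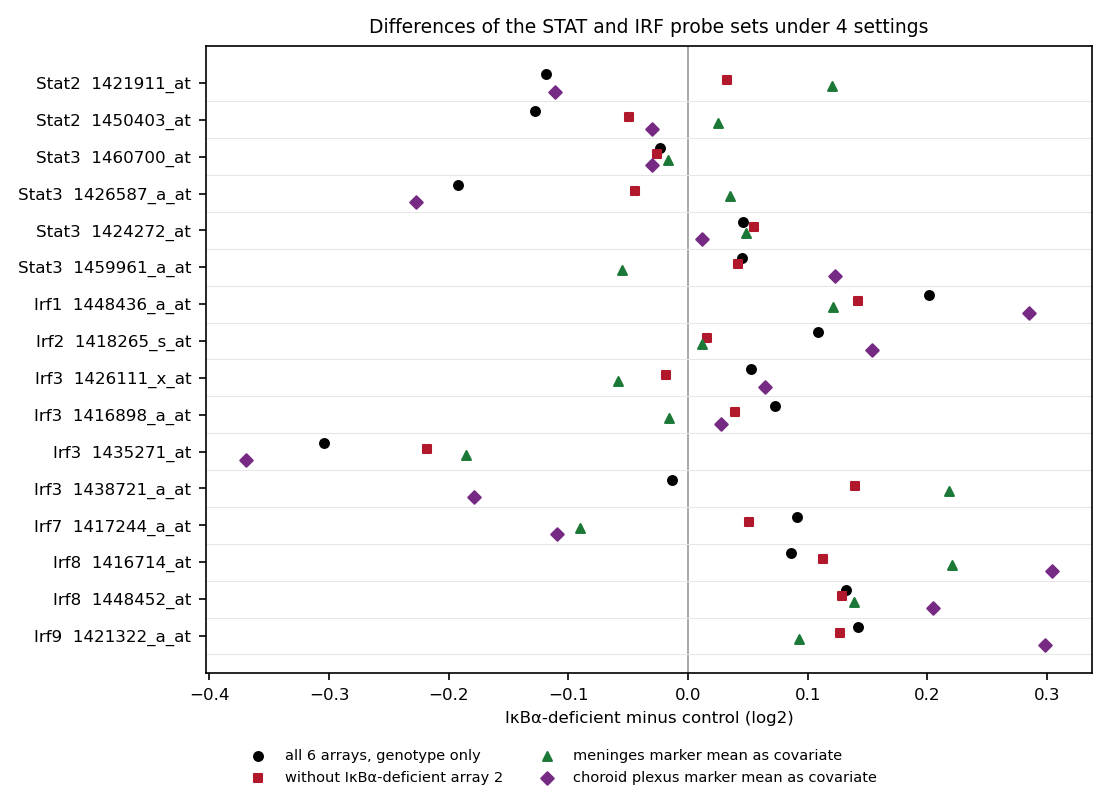
Differences between IκBα-deficient and control arrays (horizontal axis, log2) of the 16 STAT and IRF probe sets under 4 settings: all 6 arrays, without IκBα-deficient array 2, with the meninges marker mean and with the choroid plexus marker mean as a covariate. Irf1, Irf2, Irf8 and Irf9 stay to the right of 0 in all 4, while Stat2 1421911_at moves from -0.12 with all arrays to 0.03 without deficient array 2 and 0.12 with the meninges covariate.

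None of the other measured STAT and IRF genes passed. Of 6 genes, 5 had positive and 1 a negative difference, with 0 passing and a median of 0.07 beside 0.01 over all 18193 genes (9576 positive, 0 passing). Here and in the lists that follow each gene stands by its brightest probe set. Stat6, the factor of interleukin-4 signals, averaged 7.02 ± 0.12 in deficient animals and 6.78 ± 0.09 in controls (SD, n = 3 each), a difference of 0.24. Stat5b differed by 0.20, and by 0.12 without deficient array 2. Irf4, a lymphoid factor, was dim and differed by -0.24, and its second probe set was positive.

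Upstream of the STAT proteins stand the cytokine receptors and Janus kinases. Of 14 genes, 9 had positive and 5 negative differences, with 0 passing and a median of 0.02. The smallest p values were those of Il6st, which encodes gp130, at 9.93 ± 0.07 in deficient animals and 9.62 ± 0.05 in controls, and of the interferon-γ receptor chain Ifngr1, at 8.31 ± 0.06 in deficient animals and 7.99 ± 0.08 in controls (SD, n = 3 each). Their differences were 0.31 ± 0.07 and 0.31 ± 0.08 (SE), the deficient arrays lay above all controls, and neither passed (limma adjusted p = 0.9999). Of 4 Il6st probe sets, 1 had the other sign. Il10rb, a shared receptor chain, differed by 0.24, and its other probe set had the opposite sign. Jak1, Jak3 and Tyk2 were among the 5 negative genes. Jak1 gave 10.26, 9.62 and 10.32 in deficient animals against 10.22, 10.13 and 10.29 in controls, and deficient array 2 alone was low. Among the 11 measured sensors and adaptors that lead to Irf3 and Irf7, 8 were positive and 0 passed (median 0.05). The RNA sensors Tlr3 and Ifih1 differed by 0.22 and 0.29, and the dim Tlr9 by -0.17. Without deficient array 2 the differences of Tlr3 and Ifih1 were both 0.12.

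Feedback inhibitors and co-repressors of the pathway were evenly spread. Of 18 genes, 10 had positive and 8 negative differences, with 0 passing and a median of 0.02. Socs6 differed by 0.22 and the phosphatase Ptpn2 by 0.16. Usp18, an interferon-induced inhibitor of the interferon receptor, was dim and differed by 0.35 with overlapping groups (0.21 without deficient array 2). Of 3 Socs6 and 4 Ptpn2 probe sets, 1 each had the other sign.

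Among known targets of the factors, most genes had positive differences and none passed. The interferon and astrocyte genes among them were chosen with earlier results of these data in view, so their direction is no independent evidence. Of 17 Irf1 targets, 16 had positive differences and 1, Cxcl9, a negative one (median 0.185). Cxcl9 was dim, with means of 3.77 in deficient animals and 3.81 in controls, and differed by -0.04. The smallest p values were those of Gbp3, Iigp1 and Igtp, GTPases of cell-autonomous immunity, with differences of 0.40, 0.40 and 0.41. Of 18 measured ISGF3 targets, 16 were positive, and Eif2ak2 and Ifi27 were negative (median 0.13). In this list the antiviral effector Ifit3 differed by 0.37, the interferon-induced Rtp4 by 0.22 and Parp14 by 0.28. The second probe set of Rtp4 and of Parp14 had the opposite sign, and Parp14 differed by 0.15 without deficient array 2. The median of the Irf1 targets was 0.146 without deficient array 2 and 0.132 with the meninges covariate, and that of the ISGF3 targets was 0.09 in each. Members of the Gbp, Irg and Ifit families have near-identical copies, so which of them a probe set reads is uncertain.

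Of 18 Stat3 targets, 13 had positive and 5 negative differences, with 0 passing and a median of 0.09. The astrocyte filament Gfap differed by 0.30, Vim, another filament protein, by 0.28 and the copper carrier Cp by 0.35. The difference of Cp was 0.19 without deficient array 2. Of 8 astrocyte markers, Gfap among them, 4 had positive and 4 negative differences and 0 passed. Their mean was 11.74 in deficient animals and 11.68 in controls. The negative genes among the Stat3 targets were Bcl2l1, Cebpd, Junb, Lcn2, which was dim, and Serpina3n. The median was 0.04 with the meninges covariate. Of 11 Irf8 targets and microglial partners, 7 were positive and 4 negative, with 0 passing and a median of 0.09. Tlr2, a receptor for bacterial lipoproteins, differed by 0.42, the chemokine receptor Cx3cr1 by 0.11 and the dim Cybb, the oxidase subunit, by 0.21. The negative genes were Cd68, Cst3, P2ry12 and Spi1. Cd68 gave 7.42, 6.70 and 7.61 in deficient animals against 7.37, 7.27 and 7.59 in controls. P2ry12 gave 8.56, 7.53 and 8.60 in deficient animals against 8.26, 8.28 and 8.58 in controls. For Cd68 and P2ry12, deficient array 2 alone lay below the controls. The second probe set of Cx3cr1 had the opposite sign, and Cybb differed by 0.07 without deficient array 2. At an unadjusted p under 0.05 (limma), 2.61% of all genes stood with a positive difference. So did 3 of 17 Irf1 targets, 2 of 18 ISGF3 targets, 3 of 18 Stat3 targets and 1 of 11 Irf8 targets. In the other lists it was 3 of 14 receptors and kinases and 1 of 18 feedback inhibitors. It was also 1 of 11 genes upstream of Irf3 and Irf7 and 1 of 6 other STAT and IRF genes. With a negative difference it was 192 of 18193 genes, and in these lists only 1, Irf4. All lists were chosen with earlier results of these data known, so these counts are no independent evidence.

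**Figure D4:**
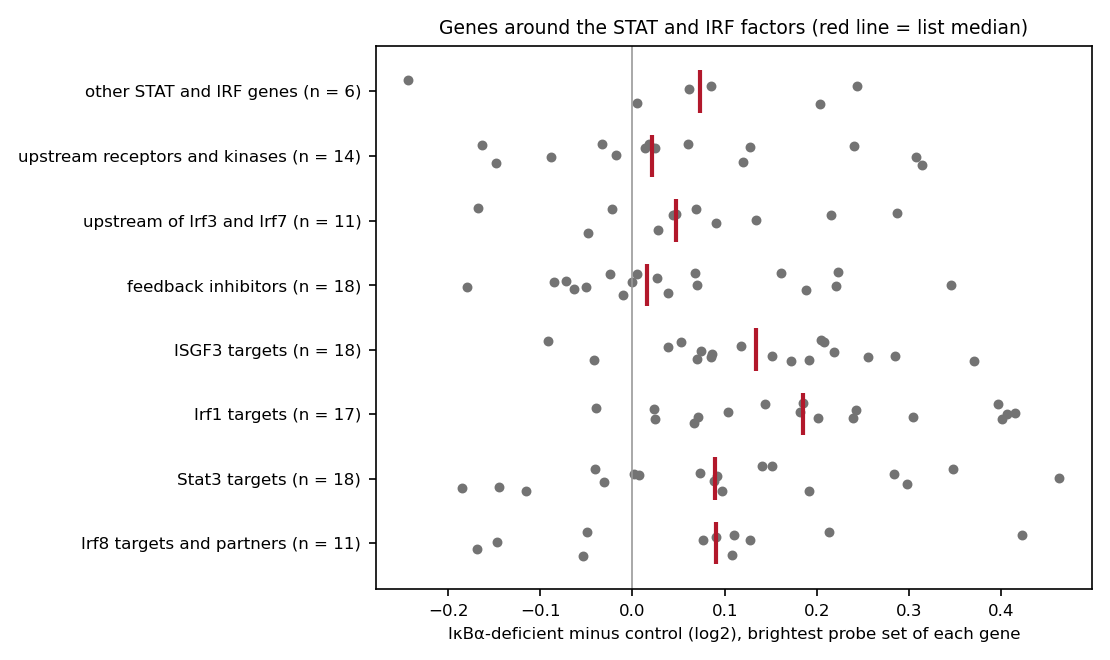
Differences between IκBα-deficient and control arrays (horizontal axis, log2) for the genes around the STAT and IRF factors, 1 point per gene on its brightest probe set, with the list median as a red line. The medians lie between 0.02 for the receptors, kinases and feedback inhibitors and 0.185 for the Irf1 targets, and no gene passed the threshold.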

How the data were processed

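Hippocampal RNA of 6 mice was measured on 1-colour Affymetrix arrays, and the deposited values were log2 values made by the authors with RMA, per the submitters' processing notes. For the RMA version, probe annotation and genome build, no source used here has a statement. Array data have no read depth, so the number of arrays limits the precision. The sorted values of the 6 arrays differed by at most 0.10, and no arrays were identical.

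Names come from the annotation GEO holds for the platform, which may be outdated (34945 with 1 symbol, 932 with several, 9160 without 1 here). Of the 45101 probe sets, 64 controls were left out, and 45037 were fitted in R 4.3.3 by limma's lmFit and eBayes (version 3.58.1, a two-sided test with genotype alone), with Benjamini-Hochberg adjustment and a threshold of 0.05. No filter on dim probe sets was used. The script was tested on simulated data. The labels call the arrays biological repeats. Standard errors, intervals and p-values rest on the spread between them, which eBayes moderates with a prior taken over all probe sets.

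The members and gene lists were chosen with earlier results of these data known. All member probe sets are reported. In each list the 3 genes with the smallest unadjusted p are named, and for each member the 2 genes most like it. Of the list genes, 2 STAT and IRF genes, 3 genes upstream of Irf3 and Irf7 and 2 ISGF3 targets are not analysed here. Negative list genes and 3 single correlations between members were named after their values were seen. Alternatives were arrays left out, repeat number as a block, other scalings, filters, weights, thresholds and marker covariates. Figures were drawn with matplotlib 3.10.9.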

Additional observations from a re-analysis of the deposited data

How the results depend on the processing

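No member probe set passed the threshold under any of the 285 combinations of member probe set and alternative that were run, whose unadjusted p reached as low as 0.00208 (Irf3 1435271_at without IκBα-deficient array 1). The sign held under every alternative for 7 of the 16, namely those of Irf1, Irf2, Irf8, Irf9, Stat3 1460700_at and Irf3 1435271_at. It turned for 9, in 24 cases. With the meninges covariate, Stat2 1421911_at gave 0.12, Stat2 1450403_at 0.025, Stat3 1426587_a_at 0.035, Stat3 1459961_a_at -0.055, Irf3 1426111_x_at -0.059, Irf3 1416898_a_at -0.016, Irf3 1438721_a_at 0.22 and Irf7 -0.090. With the covariate of 3′ to 5′ control probe sets, Stat2 1421911_at gave 0.029, Irf3 1426111_x_at -0.017 and Irf3 1438721_a_at 0.14. With array weights, Stat3 1459961_a_at gave -0.017 and Irf3 1438721_a_at 0.076. The choroid plexus covariate gave -0.11 for Irf7, and the mean of probe sets -0.048 for Irf3. With single arrays left out, the differences lay between -0.20 and 0.032 for Stat2 1421911_at, -0.031 and 0.11 for Stat3 1424272_at, -0.073 and 0.15 for Stat3 1459961_a_at, -0.018 and 0.10 for Irf3 1426111_x_at, -0.18 and 0.14 for Irf3 1438721_a_at, and -0.046 and 0.17 for Irf7. The cause was not tested.

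Over all probe sets, the count called lower was 3 and lay between 1 and 4 with single arrays left out (1 without IκBα-deficient array 2 and 1 without control array 3), was 0 without moderation and with the choroid plexus covariate, and was 1 with the meninges and 1 with the 3′ to 5′ covariate. The count called higher was 0 and lay between 0 and 6, with 6 without control array 1. Without adjustment, 968 probe sets with positive and 537 with negative differences had a p under 0.05, among them 1 and 1 of the members. The series' design names 3 animal pairs, the labels do not say that repeat numbers mark them, and the correlations did not show it. Deviations of same-numbered arrays from their group means correlated at -0.004, 0.27 and 0.03, and IκBα-deficient array 1 correlated best with control array 3. With the repeat number as a block the differences were the same by construction (Irf1 0.20), and 2 probe sets were called lower. The medians of the feedback inhibitors (-0.02 without IκBα-deficient array 2), of the genes upstream of Irf3 and Irf7 (-0.04 with the meninges covariate) and of the other STAT and IRF genes (-0.04 with the choroid plexus covariate) turned in sign, under these settings among others. Dim probe sets limit what these arrays can show, since RMA compresses their differences.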
